A study of Mus musculus with 96 samples.

Results

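The genes described here are 10 genes of hepatic and renal glucose production and glycogen storage: Pck1, G6pc, Fbp1, Pcx, Ppargc1a, Tat, Gys2, Pygl, Slc2a2 and Slc37a4. They were chosen by name, with earlier results of these data known. Each was found once among the 54833 features of the count table through its Ensembl identifier. Their RNA was read in 96 bulk libraries of liver, kidney, forebrain and cerebellum from male WT mice of strain C57BL/6, aged 6 to 8 weeks and kept in constant darkness at collection. Control mice (CON) were left undisturbed. Sleep-deprived mice (SD) spent 10 h of their resting phase in a slowly turning drum that held food and water. Collection was at 6 circadian times (CT) spaced 4 h apart, the first at CT4 and the last at CT24. Each of the 48 groups of tissue, condition and time had 2 replicates. For the sleep deprivation experiment the methods do not say whether a library came from 1 animal or from a pool, or whether liver and kidney shared mice (a statement that they did is made for another experiment of the study), so p-values measure only the spread between these libraries.

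Gluconeogenesis makes glucose from lactate, glycerol and amino acids, chiefly in the liver and in the proximal tubule of the kidney. Pyruvate carboxylase (Pcx) and phosphoenolpyruvate carboxykinase (Pck1) carry pyruvate past the irreversible step of glycolysis, fructose-1,6-bisphosphatase (Fbp1) acts further along, and glucose-6-phosphatase (G6pc) frees glucose from glucose 6-phosphate that the transporter Slc37a4 brings into the endoplasmic reticulum. Slc2a2 (GLUT2) lets glucose cross the cell membrane, Gys2 and Pygl are the liver forms of glycogen synthase and glycogen phosphorylase, Tat (tyrosine aminotransferase) starts tyrosine breakdown, and Ppargc1a is a coactivator known to raise transcription of gluconeogenic genes in fasting.

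Pck1 and G6pc are classic targets of cAMP, glucocorticoid and insulin signalling, and their promoters are printed for that reason. That of Slc37a4 is added because its protein works with G6pc in the last step of glucose release. RefSeq promoters, from 250 bases before to 50 bases after the start of transcription on GRCm38.p6, were found for 9 of the 10 genes; Gys2 is the missing entry. They are written 5′ to 3′ on the strand of the gene, with matches to the searched motifs in capitals.
Pck1 (chr2:173152823-173153122, plus strand): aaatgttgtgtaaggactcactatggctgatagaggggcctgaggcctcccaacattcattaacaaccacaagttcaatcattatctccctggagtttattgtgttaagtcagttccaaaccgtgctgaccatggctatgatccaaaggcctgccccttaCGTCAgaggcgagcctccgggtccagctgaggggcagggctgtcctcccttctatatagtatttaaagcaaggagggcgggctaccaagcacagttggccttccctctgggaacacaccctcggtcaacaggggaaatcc
G6pc (chr11:101367466-101367765, plus strand): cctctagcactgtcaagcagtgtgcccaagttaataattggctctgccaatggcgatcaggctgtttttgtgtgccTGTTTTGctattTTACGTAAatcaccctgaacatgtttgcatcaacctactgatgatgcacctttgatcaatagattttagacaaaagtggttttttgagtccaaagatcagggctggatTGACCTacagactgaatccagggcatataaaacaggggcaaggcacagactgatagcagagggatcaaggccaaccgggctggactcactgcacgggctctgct
Slc37a4 (chr9:44396696-44396995, plus strand): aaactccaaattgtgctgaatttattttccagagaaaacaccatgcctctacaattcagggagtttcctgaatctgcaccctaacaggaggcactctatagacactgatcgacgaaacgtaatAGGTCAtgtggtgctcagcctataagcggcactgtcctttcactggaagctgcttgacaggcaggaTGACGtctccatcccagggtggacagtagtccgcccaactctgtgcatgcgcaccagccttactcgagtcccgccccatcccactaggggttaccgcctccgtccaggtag
Motifs were searched on both strands: the E-box CACGTG, the D-box TTANGTAA, the full cAMP response element TGACGTCA, its core TGACG, the FOXO core GTAAACA, the insulin response core CAAAACA and the nuclear receptor core AGGTCA. Of 32851 promoters of the same length, 7.15% held the E-box, 2.32% the D-box, 1.79% the full cAMP element, 20.8% its core, 3.65% the FOXO core, 6.28% the insulin response core and 16.3% the nuclear receptor core. The core TGACG lies inside the full element, so these 2 shares overlap. The capitals in Pck1 mark the cAMP core at -90 from the start. In G6pc they mark, in order, the insulin response core at -174, the D-box at -162 and the nuclear receptor core at -54, and in this promoter of Slc37a4 the nuclear receptor core at -127 and the cAMP core at -61. Slc37a4 has 3 listed promoters, of which the first is printed. The second held cAMP cores at -214 and -82 and no nuclear receptor core. Among the other genes the E-box was found only upstream of Pcx, at -248 of its first listed start. A match is a run of letters and not a measured binding site.

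Libraries held 24.8 to 58.5 M counted reads. Levels are given as CPM, the count of a gene scaled to the total count of its library, and levels of different genes are compared only as CPM per kb of exon. Of 11 clock genes tested, 10 or 11 cycled in each of the 4 liver and kidney series. The summed level of 6 hepatocyte markers was 78850.0 to 104262 CPM in liver and 358 to 778 CPM in kidney. Most of the kidney sum was Cyp2e1, at 657 CPM in CON CT20 replicate 1 and 350 to 616 CPM in the other 23 libraries. In kidney the labels conflict: for 20 of 24 libraries the treatment or time listed for the sample disagrees with its title. Groups follow the titles, which match the column names of the count table, so each kidney result below, and each liver against kidney comparison by condition or time, rests on those titles. The cycling of clock genes bears on the times in the titles and not on the conditions. Nr1d1 had its fitted peak at CT 14.5 in CON liver and CT 14.4 in CON kidney, and Arntl at CT 5.18 in CON kidney. Peak times below are on the scale of the titles, and where its zero lies in the animals' day was not tested.

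In the liver the leading genes by length-corrected level were Fbp1, Tat and Pck1, and in the kidney they were Pck1, Fbp1 and Pcx. Fbp1 stood at 418 ± 53.5 CPM per kb in CON liver, Tat at 342 ± 120.1, Pck1 at 341 ± 217, G6pc at 144 ± 49.8 and Pcx at 132 ± 11.7 (SD over 12 libraries each, with 6 times pooled). These neighbours in the order overlapped in their spread. Pygl followed at 92.3 ± 11.1, and Slc2a2, Gys2 and Slc37a4 lay close together at 68.4 ± 21.6, 63.9 ± 19.9 and 63.4 ± 15.96 CPM per kb. Ppargc1a came last at 2.01 ± 0.597 CPM per kb and did not overlap the spread of any other gene. In CON kidney Pck1 reached 868 ± 195, Fbp1 498 ± 33.8, Pcx 214.5 ± 15.3 and G6pc 203 ± 56.8 CPM per kb, with Pcx and G6pc overlapping in their spread. Slc37a4 was at 87.1 ± 5.73, Slc2a2 at 39.5 ± 5.62, Ppargc1a at 18.99 ± 2.02, Pygl at 5.92 ± 2.08 and Gys2 at 5.51 ± 0.639 CPM per kb, and Pygl and Gys2 could not be ordered.

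Both brain regions carried only part of this set. Pck1, G6pc, Fbp1, Tat, Gys2 and Slc2a2 stayed below 1 CPM in each of the 48 brain libraries, with 0 to 24 reads. Pcx was at 51.3 to 72.5 CPM in forebrain and 45.3 to 87.9 in cerebellum, and Ppargc1a at 46.3 to 71.3 and 40.1 to 55.9 CPM. Slc37a4 had 11.1 to 17.9 CPM in forebrain and 5.82 to 11.5 in cerebellum, and Pygl 3.69 to 9.82 and 5.61 to 11.5 CPM. The median level of Ppargc1a per kb was thus 9.11 in forebrain and 6.996 in cerebellum, between the kidney median of 19.5 and the liver median of 2.05.

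**Figure D1:**
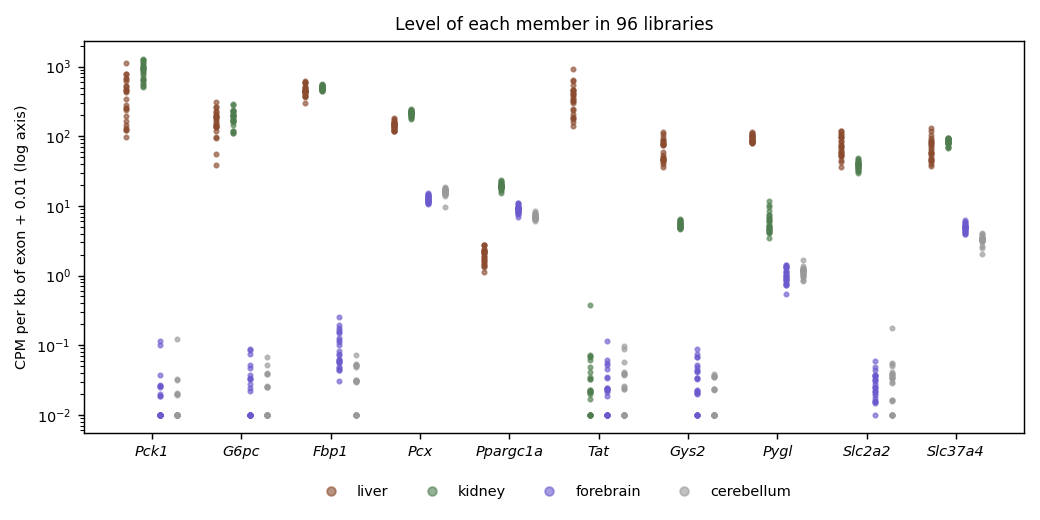
Level of each gene, as CPM per kb of exon plus 0.01 on a log axis, in the 24 libraries of each of 4 tissues, with 1 point per library. Tat is near 0 outside the liver, 6 genes are near 0 in both brain regions, and Ppargc1a is lowest in the liver.

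The first comparison asked how the organs that make glucose differ. It was tested with edgeR's quasi-likelihood test on raw counts with TMM factors over the 6 times, 12 liver against 12 kidney libraries in each condition, with Benjamini-Hochberg adjustment over all genes tested and a call at an adjusted p below 0.05. Under CON 8 of the 10 genes were called, 5 higher and 3 lower in liver, beside 81.5% of all genes (38.5% higher, 43% lower); under SD all 10 were called, 8 higher and 2 lower, beside 80% of all genes (34.7% and 45.3%). With most genes called, these counts are near the background. Library composition also bears on the direction: TMM placed the median of all genes at -0.05 (log2, liver over kidney) under CON, and scaling by library size alone placed it at -0.57.

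The glycogen enzymes were liver genes. Gys2 was at 96.7 to 236 CPM in CON liver and 12.2 to 17.1 CPM in CON kidney, a 15.97-fold difference (log2 4.00 ± 0.05, SE; edgeR adjusted p = 2.38e-21). Pygl was at 551 to 756 CPM in CON liver and 28.7 to 80.0 in CON kidney, 23.0-fold higher in liver (log2 4.52 ± 0.11, adjusted p = 2.59e-17). For both genes every liver library was above every kidney library in both conditions. Under SD the differences were 4.29 ± 0.08 for Gys2 and 4.61 ± 0.17 for Pygl on the log2 scale.

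Tat was the gene most restricted to the liver. It was read at 339 to 2227 CPM in liver and at 0 to 0.892 CPM in kidney, with a kidney median of 0.0295 CPM. The highest kidney value was in CON CT20 replicate 1, and the other 23 kidney libraries had at most 0.151 CPM. That library also had 91.4 CPM of albumin (Alb) against at most 12.6 CPM in the others, and 8.81 CPM of Ahsg against at most 0.984; the part of liver RNA in its Tat value was not tested. No fold is given for Tat because its kidney level is near 0.

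Slc2a2 was higher in liver, by 1.26 ± 0.06 (log2) under CON and 1.71 ± 0.09 under SD (adjusted p = 9.83e-13 and 5.92e-12). Its liver CPM was above its kidney CPM without overlap at 5 of 6 times under CON and at 6 under SD.

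Pck1 and Ppargc1a were higher in kidney. Ppargc1a was at 7.40 to 18.2 CPM in CON liver and 101 to 146 CPM in CON kidney, and its level was 6.78-fold higher in kidney under CON (log2, liver over kidney, -2.76 ± 0.08; adjusted p = 3.83e-16) and 6.62-fold higher under SD. Pck1 was 2.16-fold higher in CON kidney (log2 -1.11 ± 0.10, adjusted p = 5.09e-09). In CPM, scaled by library size alone, both kidney libraries were above both liver libraries at each of the 6 times in both conditions. With TMM the kidney excess was called at 3 times in CON and at 1 in SD. At SD CT20 the TMM estimates of the fits that left out 1 library were on the liver side, 0.005 to 0.51. Under SD the gap in Pck1 was -0.38 ± 0.16 (adjusted p = 0.0445), and leaving out 1 library lost that call in 13 of 24 fits. Pcx was also lower in CON liver, by -0.17 ± 0.06 (adjusted p = 0.00923), and at -0.70 with library sizes alone; under SD its sign depended on the scaling, 0.20 with TMM and -0.46 without.

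Fbp1, G6pc and Slc37a4 had no called direction that held under both scalings. In CON, Fbp1 was 0.26 higher in liver with TMM and -0.26 with library sizes alone, and Slc37a4 was at 0.03 and -0.49. G6pc was at 0.04 ± 0.19 with TMM (adjusted p = 0.85) and -0.49 without. Under SD the TMM values were 0.66, 0.44 and 0.78 for Fbp1, Slc37a4 and G6pc and the library-size values 0.01, -0.22 and 0.11. No order between the organs is given for these 3 genes.

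The second comparison asked how 10 h of sleep deprivation changed these genes over the following day. In the liver, 6 of the 10 genes rose and none fell: Pck1, Fbp1, Pcx, Gys2, Slc2a2 and Slc37a4. Beside them 18.2% of all genes were called, 9.42% upward and 8.8% downward, which is 1857 genes higher and 1735 lower (358 and 3766 with library sizes alone). The set covered enzymes of the pathway, both transporters and glycogen synthase. Its median change was 0.35 (log2, SD over CON), beside 0.01 over all genes. With library sizes alone in place of TMM the medians were 0.21 and -0.13, and 3 of the 10 genes (Fbp1, Pcx and Slc2a2) were called. In the kidney 0 of 9 genes tested were called, beside 2.3% of all genes (0.181% upward, 2.12% downward), and the median change was -0.03.

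**Figure D2:**
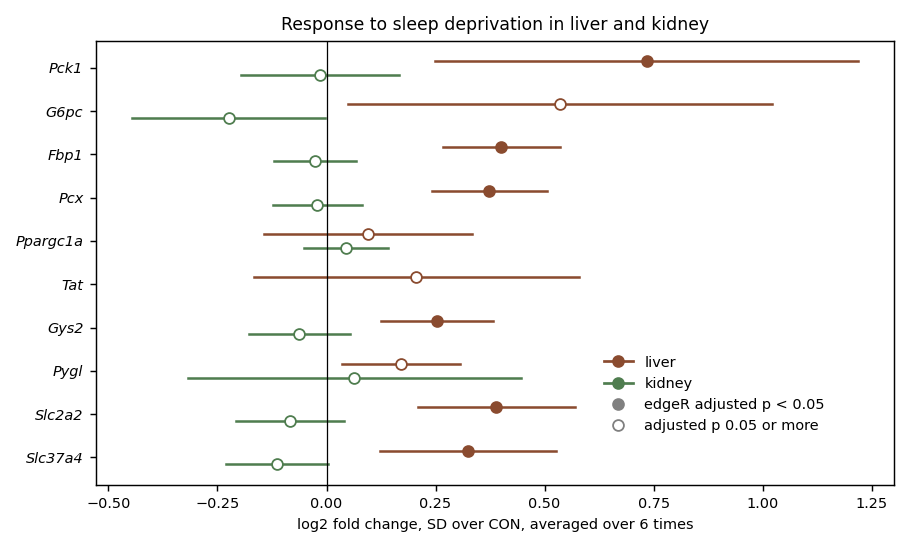
Change of each gene with sleep deprivation (log2, SD over CON, averaged over 6 times; points are edgeR estimates, bars 95% confidence intervals, 12 against 12 libraries) in liver and kidney; filled points have an adjusted p below 0.05. Liver estimates are above 0 for all 10 genes under TMM scaling, and kidney intervals include 0 except that of G6pc, which lies below it (Tat was not tested in kidney).

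Fbp1 and Pcx had the lowest p-values of the 10 genes, and their replicates differed by a median of 1.12-fold and 1.10-fold in liver. In CPM, Fbp1 in CON liver was 759 and 751 at CT4, 701 and 661 at CT8, 651 and 759.7 at CT12, 505 and 613 at CT16, 749 and 843 at CT20, and 783 and 762 at CT24. In SD liver it was 1018 and 862, 741 and 824, 743 and 731, 640.3 and 788, 1047 and 877, and 1004 and 983 at the same times. Both SD libraries were above both CON libraries at 5 of 6 times, with overlap at CT12. Fbp1 rose 1.32-fold (95% confidence interval 1.203 to 1.449; log2 0.40 ± 0.07, adjusted p = 0.000201). Pcx ranged from 563 to 716 CPM in CON liver with a median of 628, and from 625 to 874 in SD liver with a median of 746. It rose 1.30-fold (1.18 to 1.42; log2 0.37 ± 0.06, adjusted p = 0.00033), its SD mean was higher at each of 6 times, and at 3 of them the libraries did not overlap. In the kidney Fbp1 changed by -0.03 ± 0.05 and Pcx by -0.02 ± 0.05 on the log2 scale.

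Pck1, the pace-setting enzyme of the pathway, had the highest estimate and the widest error, among the called genes. In CON liver it was 1820.3 and 1779.5 CPM at CT4, 426 and 666 at CT8, 444 and 559 at CT12, 2155 and 2251 at CT16, 1635 and 1467 at CT20, and 492 and 329.8 at CT24. In SD liver it was 1563 and 949.7, 417 and 822, 869 and 878, 1533 and 2722, 3826 and 2729, and 1157 and 2335 CPM. SD libraries were above CON without overlap at CT12, CT20 and CT24, below at CT4, and overlapping at CT8 and CT16. Averaged over the day Pck1 rose 1.66-fold (1.19 to 2.33; log2 0.73 ± 0.23, adjusted p = 0.0313). That call is not firm: the adjusted p was 0.0701 with library sizes alone, 0.087 with DESeq2 and 0.188 without CT8 and CT24, and it was over 0.05 in 8 of 24 fits that left out 1 library.

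Tested over the 6 times jointly, so that opposite changes at different times could add up, Pck1 (adjusted p = 0.0198) and Fbp1 (0.0488) were called in liver, beside 3.56% of all genes. The Fbp1 call was lost in 22 of 24 fits that left out 1 library, and the Pck1 call in 2. At CT24 alone Pck1 was higher in SD by 2.24 ± 0.41 on the log2 scale (adjusted p = 0.0491, beside 0.238% of genes called at that time; the shares from CT4 to CT20 were 0.0101%, 0.416%, 0%, 0% and 0%), and this call was lost in 15 of 24 such fits. No other member was called at a single time in liver. The next by p at CT24 were Tat (1.21 ± 0.33, edgeR adjusted p = 0.104) and Fbp1 (0.50 ± 0.17, edgeR adjusted p = 0.195). In kidney 0 of 9 genes were called jointly, beside 0.725% of all genes. At an unadjusted edgeR p below 0.05 there were 2 of the 9, G6pc (0.0196) and Ppargc1a (0.0134), beside 2277 of 21528 genes.

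G6pc was the noisiest member in liver. Its replicates differed by a median of 1.58-fold, and at CON CT24 they were 344 and 92.2 CPM. In CON liver it ran from 92.2 to 503 CPM with a median of 355, and in SD liver from 133 to 738 with a median of 460.2. SD was above CON without overlap at CT8 (545 and 629.8 against 364 and 452) and at CT20 (559 and 738 against 233 and 464). The mean change was 0.54 ± 0.24 (adjusted p = 0.12), and it passed the threshold (adjusted p = 0.0283) without SD CT16 replicate 1, the library with 133 CPM. In kidney the estimate was of the other sign, -0.22 ± 0.11 (adjusted p = 0.37), with SD below CON without overlap at CT4 (352 and 419 against 528 and 688) and CT8 (429 and 398 against 548 and 710.1).

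Among the transporters, Slc2a2 rose 1.31-fold in liver (1.16 to 1.49; log2 0.39 ± 0.09, adjusted p = 0.00306). SD libraries were above CON without overlap at 4 of 6 times, for example 613 and 628 against 564 and 488 CPM at CT16 and 676 and 678 against 565 and 499 at CT20, and below at CT12 (408 and 379 against 442 and 412). Slc37a4 rose 1.25-fold (1.09 to 1.44; log2 0.32 ± 0.10, adjusted p = 0.0223), with 220.4 and 269 against 187 and 175 CPM at CT16 and 299 and 335 against 244 and 225 at CT20, and overlap at the other 4 times. Without SD CT24 replicate 2, at 369 CPM, its adjusted p was 0.0508.

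Of the glycogen enzymes Gys2 rose 1.19-fold in liver (1.09 to 1.30; log2 0.25 ± 0.06, adjusted p = 0.00634), and only at CT20 did the libraries part, at 305 and 283 CPM in SD and 235 and 236 in CON. With library sizes alone Gys2 changed by 0.11 (adjusted p = 0.156). Pygl, at 551 to 756 CPM in CON and 568 to 794 in SD liver, changed by 0.17 ± 0.07 (adjusted p = 0.0718), with overlap at 3 of 6 times.

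Tat and Ppargc1a did not pass. Tat in CON liver was 1551 and 768 CPM at CT4, 596 and 1006 at CT8, 508 and 419 at CT12, 932 and 729 at CT16, 826 and 762 at CT20, and 926 and 850.1 at CT24. In SD liver it was 1094 and 1102, 576 and 1112, 459 and 339, 387 and 435, 1012 and 1314, and 1472 and 2227 CPM. SD was thus below CON without overlap at CT16 and above at CT20 and CT24, and the mean change was 0.21 ± 0.18 (adjusted p = 0.481). Ppargc1a was at 7.40 to 18.2 CPM in CON and 8.85 to 15.0 CPM in SD liver and changed by 0.10 ± 0.12 with TMM (adjusted p = 0.631) and -0.04 with library sizes alone.

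**Figure D3:**
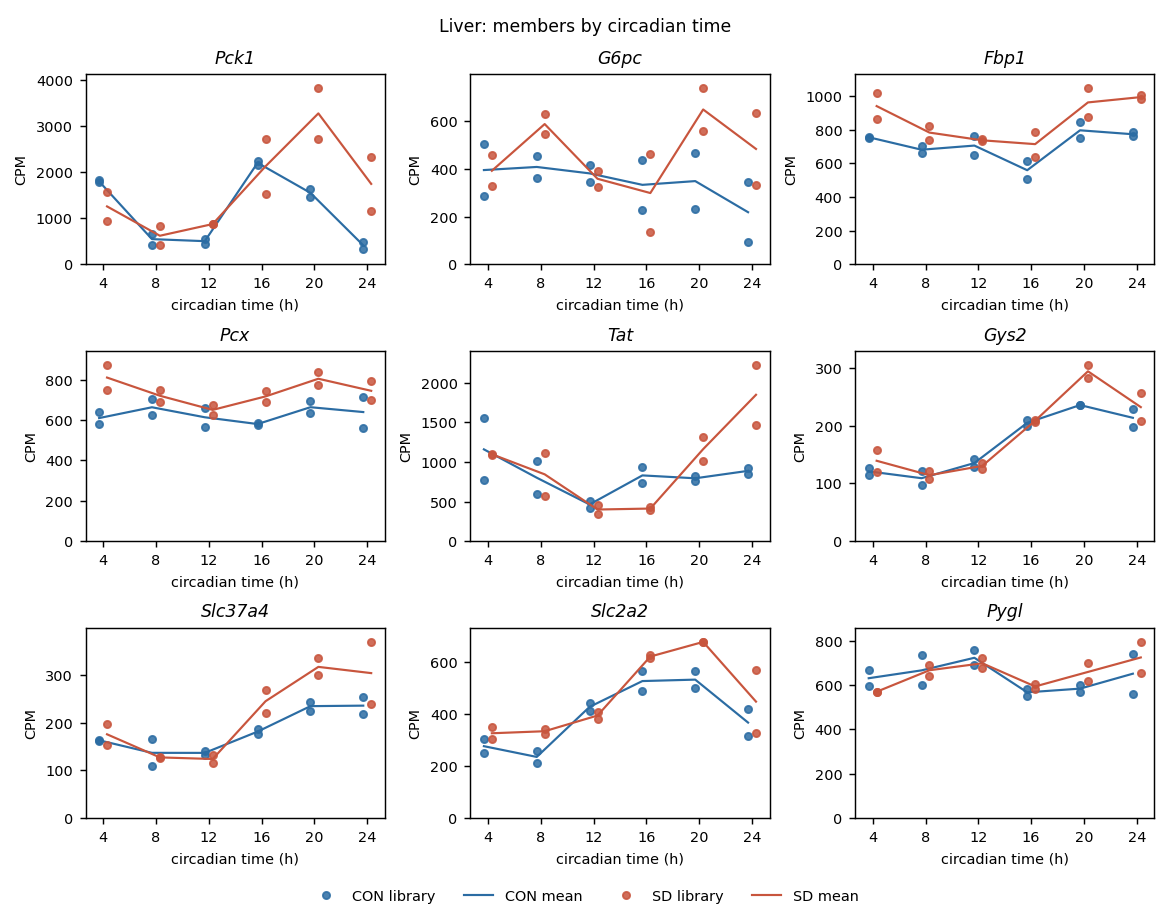
CPM of 9 genes in liver against circadian time in hours, with 1 point per library, 2 per time and condition, and lines through the means of CON and SD. Pck1 in SD peaks at CT20 and stays above CON at CT24, Tat is lower in SD at CT16 and higher at CT24, and Fbp1 and Pcx are higher in SD by their means at all 6 times.

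Whether the liver responded differently from the kidney was tested by the difference of the responses in a single fit of 48 libraries. It passed for 5 of the 10 genes, all with the higher response in liver, beside 6.49% of all genes (3.76% in that direction; 2.72% in the other; 861 genes above and 623 below, or 173 and 2742 with library sizes alone). Fbp1 differed by 0.42 ± 0.08 (log2; adjusted p = 0.00171), Pcx by 0.39 ± 0.08 (0.00431), Slc2a2 by 0.47 ± 0.11 (0.0113), Slc37a4 by 0.43 ± 0.12 (0.0251) and Gys2 by 0.31 ± 0.09 (0.0274). Pck1, at 0.74 ± 0.26 (adjusted p = 0.0795), and G6pc, at 0.75 ± 0.28 (0.0882), had higher estimates and did not pass; G6pc passed with DESeq2 (0.0399). The difference for Tat was 1.403 ± 0.75 (0.265), with a kidney level near 0. For Pygl (0.10 ± 0.20) and Ppargc1a (0.04 ± 0.13) the 95% intervals were -0.31 to 0.51 and -0.21 to 0.30. With library sizes alone 3 genes passed, and Gys2 (adjusted p = 0.176) and Slc37a4 (0.0694) did not. In the kidney the 95% interval of the response of Pck1 was -0.20 to 0.17, of Fbp1 -0.12 to 0.07 and of Pcx -0.12 to 0.08.

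**Figure D4:**
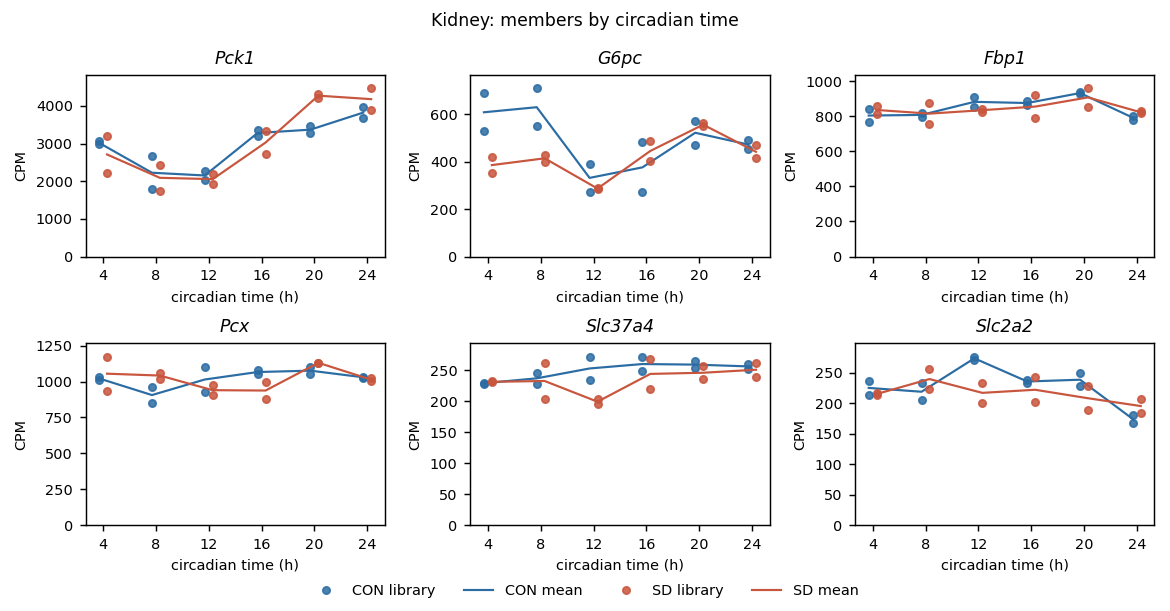
CPM of 6 genes in kidney against circadian time in hours, with 1 point per library, 2 per time and condition, and lines through the means of CON and SD. Pck1 runs from 1743 CPM at SD CT8 to 4475 CPM at SD CT24, and the SD libraries of G6pc lie below the CON libraries at CT4 and CT8.

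Cell markers moved with the liver response. All 6 leukocyte markers were called lower in SD liver, with a median change of -0.64, and their summed level was 476 to 1166 CPM in CON and 226 to 489 in SD, with both SD libraries below both CON libraries at 6 of 6 times. Of 6 hepatocyte markers 5 were called higher, with a median change of 0.27, and none was at 0. Their sum was 78850.0 to 104262 CPM in CON and 83418 to 102886 in SD. By that sum both SD libraries were above both CON libraries at 3 of 6 times and below at 1, with overlap at 2. Of 4 endothelial markers 1 was called lower. In bulk tissue fewer cells of a type and less RNA per cell cannot be told apart, and the part of these shifts in the response of the 10 genes was not tested. In the kidney 4 of 6 leukocyte markers were also called lower, and their sum was again below CON at 6 of 6 times.

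Other genes of the pathway moved in the same liver libraries. Estimates for the 6 hepatocyte markers there ran from 0.24 (Alb) to 0.51 (Cyp2e1) on the log2 scale. The part of the cell marker shifts in the lists below was not tested. Of 17 enzymes of gluconeogenesis and 3-carbon supply tested, 8 rose and none fell (all genes: 9.42% up, 8.8% down), with a list median of 0.21; among them were Gpd1 (0.36), which links glycerol to the pathway, the alanine aminotransferase Gpt2 (0.30), the mitochondrial aspartate aminotransferase Got2 (0.26) and the glycerol kinase Gk (0.24). Of 14 enzymes that use glucose, 6 fell and none rose: the hexokinases Hk3 (-0.91), Hk2 (-0.78) and Hk1 (-0.35), the phosphofructokinase subunit Pfkp (-0.47), Pfkfb4 (-0.66), which sets the level of fructose 2,6-bisphosphate, and Pkm (-0.58), the muscle form of pyruvate kinase. Hk3 is known from myeloid cells, and Hk1, Hk2, Pfkp and Pkm are more usual in cells other than hepatocytes. Hk1, Pfkp and Pklr are named after their values were seen; Pklr, the liver form of pyruvate kinase, was at 0.12 and was not called.

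The remaining lists are read against the same shares of all genes, 9.42% up and 8.8% down. All lists were chosen with earlier results of these data known. Of 22 other glycogen genes 3 were called, Epm2a (0.27), which encodes the glycogen phosphatase laforin, upward and the branching enzyme Gbe1 (-0.27) and the brain phosphorylase Pygb (-0.24) downward. Of 11 other sugar transporters 3 rose, among them Slc2a5 (0.40), a fructose transporter, and Slc2a9 (0.22), a urate transporter, and 2 fell, Slc2a3 (-0.63) and Slc37a2 (-0.28). Of 22 receptors, transcription factors and coactivators 9 rose, with the pioneer factor Foxa2 (0.37), the fasting-induced Klf15 (0.34), Creb3l3 (0.31) and the glucagon receptor Gcgr (0.25) in the lead. Of 10 enzymes of amino acid breakdown 8 rose, including Hpd (0.49), the next enzyme after Tat, and Oat (0.47) and Aass (0.34). In the kidney the only gene of these lists that was called was Hk3 (-0.61).

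In forebrain 6 and in cerebellum 4 of the 10 genes passed the filter on low counts, and 0 were called in either with edgeR or DESeq2, beside 0.0303% and 0% of all genes. At an unadjusted edgeR p below 0.05 the counts were 0 and 1, beside 1479 and 757 of all genes. That gene was Pygl in cerebellum (-0.22 ± 0.09, edgeR adjusted p = 0.907). At these depths the precision followed the level: the SE was 0.06 for Pcx, Ppargc1a and Slc37a4 in forebrain and 0.87 for Pck1, which had at most 13 reads there.

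The third comparison was of the daily profile. A cosine of 24 h was fitted to the 12 libraries of each organ and condition. In CON liver 3 of 10 genes cycled, beside 9.13% of all genes: Gys2 (amplitude 0.60 on the log2 scale, peak at CT 20.4, adjusted p = 8.06e-05), Slc37a4 (0.49, CT 22.3, adjusted p = 0.00198) and Slc2a2 (0.55, CT 18.3, adjusted p = 0.0028). From trough to peak of the fit Gys2 moved 2.30-fold, Slc2a2 2.16-fold and Slc37a4 1.98-fold. All 3 peaked in the second part of the 24 h, and their calls held in each of the 12 fits that left out 1 library. Pck1, whose CON means were high at CT4 and again at CT16 and CT20, had an amplitude of 0.56 and was not called (adjusted p = 0.558). Tat had 0.50 (adjusted p = 0.0848).

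In SD liver 6 of 10 genes cycled, beside 12.9% of all genes. Tat had the highest amplitude, 1.16 with a peak at CT 1.12 and a 4.98-fold span (adjusted p = 0.000736), and Pck1 followed with 1.09, a peak at CT 20.6 and a 4.56-fold span (adjusted p = 0.00399). Slc37a4 reached 0.78 (CT 21.5), Gys2 0.69 (CT 20.8) and Slc2a2 0.53 (CT 18.99), with adjusted p-values of 0.00034, 0.000109 and 0.00416. Fbp1 had 0.32 (CT 0.927, adjusted p = 0.0273), and did not pass in 6 of the 12 fits with 1 library left out. The rank test JTK_CYCLE was stricter. It called 0 of the 10 genes in CON liver, beside 0.151% of all genes, with Gys2 closest (adjusted p = 0.0591), and in SD liver it called Gys2 (0.0269) and Pck1 (0.0404), beside 1.86%; in kidney it called 0 of 9 in either condition, beside 0.164% in CON and 0% in SD.

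A gene that passed in SD and not in CON is not shown to differ by that. Tested directly, 0 of 10 genes had a different profile in SD and CON liver with edgeR, and 0 of 19708 genes in all. At an unadjusted edgeR p below 0.05 the counts were 1 and 722. That member was Tat, with an unadjusted edgeR p of 0.0266, and Slc37a4 was at 0.0559. DESeq2 called 0 of the 10 and 4 genes in all. In kidney 0 of 9 differed with edgeR or DESeq2, G6pc alone having an unadjusted p below 0.05 (0.0266), beside 874 of all genes.

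In kidney only Pck1 cycled, in CON (amplitude 0.42, peak CT 22.1, 1.79-fold, adjusted p = 0.0195, beside 4.1% of all genes) and in SD (0.60, CT 21.8, 2.30-fold, adjusted p = 0.00826, beside 1.94%). Its CON values were lowest at CT8 and CT12 (1788 to 2662 CPM) and highest at CT24 (3669 and 3976 CPM), and the SD values ran from 1743 CPM at CT8 to 4475 at CT24. The CON call was lost in 3 of 12 fits that left out 1 library. Gys2 in kidney had an amplitude of 0.12 in CON and 0.08 in SD, Slc37a4 0.09 and 0.13, and Slc2a2 0.20 and 0.09.

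**Figure D5:**
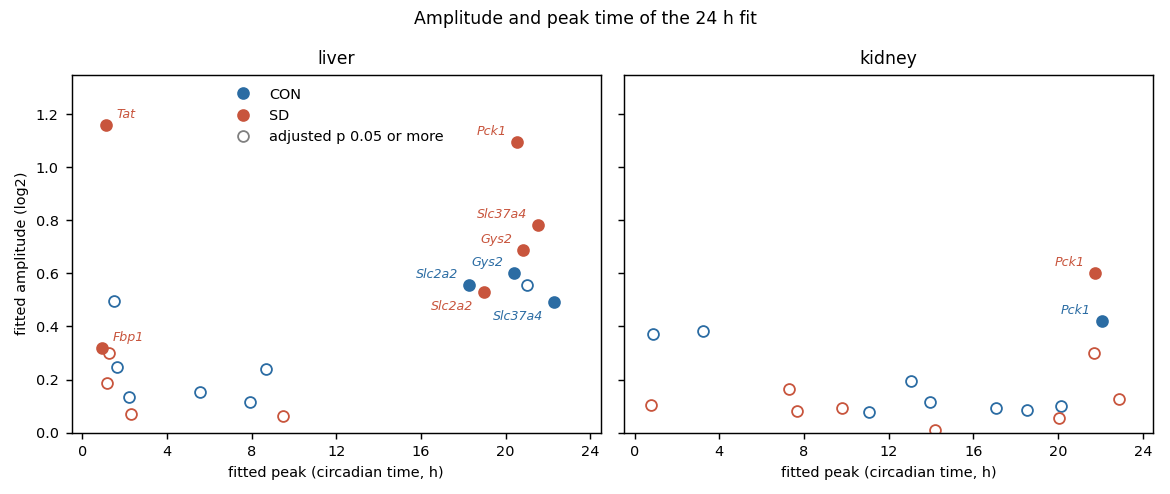
Fitted amplitude (log2) against fitted peak time (circadian time in hours) of each gene tested, in liver and kidney, for CON and SD; filled, named points have an edgeR adjusted p below 0.05. Liver members that cycle peak between CT 18.3 and CT 1.12, and in kidney only Pck1 is filled.

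The profiles of Gys2, Slc2a2 and Slc37a4 differed between liver and kidney in both conditions, beside 3.05% of all genes in CON and 3.12% in SD. The adjusted p-values in CON were 0.000179, 0.0141 and 0.0138, and in SD 0.000151, 0.0124 and 0.00634. For Pck1, which had like peak times in SD liver and in both kidney series, the difference was not shown in CON (adjusted p = 0.964) or SD (0.325). The CON and SD tests share no library.

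The highest correlations between members over the 24 liver libraries fell in 2 groups. They are described by Pearson's r of log2 CPM with no test, since libraries share time, condition and depth. Slc37a4 and Gys2 had r = 0.90, Slc2a2 and Gys2 0.80, and Slc37a4 and Slc2a2 0.66. Pcx and Fbp1 had r = 0.74. Below these values, Pck1 had r = 0.60 with Slc2a2, 0.58 with Slc37a4 and 0.55 with Gys2. Pck1 and G6pc, often named together, had only r = 0.30 in liver and 0.32 in kidney, and Pygl had no r above 0.45 with another member in liver. In kidney Slc2a2 and Gys2 again had r = 0.80.

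Over the same libraries the 3 genes most like Pck1 in liver were Il6ra (r = 0.85), a receptor subunit for interleukin-6, the kinase gene Mknk2 (0.85) and Foxo1 (0.84), the insulin-regulated transcription factor. In kidney they were Slc25a25 (0.94), Nkain1 (0.91) and Mreg (0.88). Those most like G6pc were Dct (0.77), the aspartate aminotransferase Got1 (0.73) and Aqp4 (0.68) in liver and Ngly1 (0.76), Tmem181c-ps (0.70) and Usp33 (0.70) in kidney.

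The genes lie on 10 different chromosomes of GRCm38. Pck1 is at chr2:173153048-173159273 and G6pc at chr11:101367561-101377903 on the plus strand, as are Pcx (chr19:4510472-4621752), Tat (chr8:109990437-109999803), Slc2a2 (chr3:28697903-28731359) and Slc37a4 (chr9:44396852-44402968). Fbp1 (chr13:62864753-62888282), Ppargc1a (chr5:51454250-51567726), Gys2 (chr6:142422613-142473109) and Pygl (chr12:70190811-70231488) are on the minus strand. Counts are of exon reads over the whole gene, so isoforms were not separated.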

How the data were processed

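RNA of 96 libraries (total RNA, stranded) was analysed from raw counts per gene. The authors trimmed the reads (Trim Galore), aligned them to GRCm38 (HISAT2), kept alignments of high mapping quality (SAMtools) and deposited counts made by strand with featureCounts; the count table and the files of single libraries were identical in 96 of 96 columns. Reads shared by near-identical copies are lost by this filter. Symbols, positions and exon lengths came from GENCODE M21. The genes and lists were chosen with earlier results of these data known. Another 5248 loci outside Ensembl took 0.084% to 1.06% of counts and were kept as features.

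Tests used edgeR 4.0.16 in R 4.3.3 (filterByExpr, TMM, glmQLFit, glmQLFTest), one fit per comparison over the libraries it names, with Benjamini-Hochberg adjustment over all genes tested and a threshold of 0.05; times were fitted as a factor, or as a cosine and sine of 24 h. All 10 genes were named, with up to 4 called genes per list by size of change (some are not reported here) and the 3 genes with the highest r to Pck1 and G6pc. Alternatives were library sizes alone, no filter, DESeq2 1.42.0, JTK_CYCLE, a replicate block, leaving out each library, and leaving out CT8 and CT24. The scripts were tested on simulated counts. Equal replicate numbers were not taken to pair samples. Groups were read from sample titles.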

Additional observations from a re-analysis of the deposited data

Results flagged for a closer look

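The response to sleep deprivation differed between liver and kidney, by a test of that difference, for 5 of the 10 genes. Over all genes it differed for 1484 of 22870. On the log2 scale the liver response exceeded the kidney response by 0.42 for Fbp1, 0.39 for Pcx, 0.31 for Gys2, 0.47 for Slc2a2 and 0.43 for Slc37a4. With library sizes alone Gys2 and Slc37a4 did not pass. The 24 h profile also differed between the organs, by a test of the cosine terms, for the glycogen synthase Gys2 and both transporters. Over all genes it differed for 672 of 22057 in CON and 694 of 22237 in SD. The edgeR adjusted p-values were 0.000179 for Gys2, 0.0141 for Slc2a2 and 0.0138 for Slc37a4 in CON. In SD they were 0.000151, 0.0124 and 0.00634 in the same order. With 2 libraries in each group, no rule for a library far from the others of its group was applied.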

How the results depend on the processing

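The 6 genes called in liver had estimates above 0 under each alternative run. The number of the 10 genes called was 6 with TMM, 3 with library sizes alone, 9 with no filter on low counts, 6 with DESeq2, and 5 with a replicate block or without CT8 and CT24. Library sizes alone called 1 gene in the joint liver test and 3 in the difference of the organs' responses. With no filter the counts were 1 for kidney, 8 and 3 for the joint tests in liver and kidney, 8 for the difference of responses, 7 for rhythm in CON liver, 5 and 2 in CON and SD kidney, 3 for the SD against CON profile in liver, and 5 for the CON profile in liver against kidney. DESeq2 called 5 genes in the joint liver test and 2 each for rhythm in CON and SD kidney. JTK_CYCLE, a rank test, called 0, 2, 0 and 0 genes in CON liver, SD liver, CON kidney and SD kidney. The replicate block gave 1 gene in the joint liver test. Libraries with equal numbers deviated together (correlation over 0.1) in 2 of 6 liver pairs and 4 of 6 kidney pairs. Between liver and kidney they did so in 4 of 12 pairs. The median correlations were 0.05, 0.145 and 0.07 in that order. The numbers were not taken as pairs, and this check cannot exclude a pairing. Leaving out 1 library gave 0 to 3 genes in the joint liver test and 0 to 2 for rhythm in CON kidney. The cause of these differences was not tested.

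Some estimates changed sign, including organ contrasts that were called with TMM. Those were Fbp1 in CON (log2 0.26) and Pcx (0.20) and Slc37a4 (0.44) in SD. With library sizes alone Ppargc1a in liver was -0.0441, Pck1 in kidney 0.0068 and Pcx in kidney 4.1e-05, and the organ contrasts were -0.49 for G6pc, -0.26 for Fbp1 and -0.49 for Slc37a4 in CON and -0.46 for Pcx and -0.22 for Slc37a4 in SD. The differences of responses were then -0.11 for Ppargc1a and -0.0543 for Pygl. Without CT8 and CT24 the liver response of Ppargc1a was -0.0838 and of Tat -0.0528, and with the replicate block G6pc in the CON organ contrast was -0.0334. Leaving out 1 library gave ranges across 0 for Pck1 (-0.0454 to 0.0343), Pcx (-0.0463 to 0.00415) and Pygl (-0.0436 to 0.17) in kidney, for G6pc (-0.19 to 0.15) and Slc37a4 (-0.0349 to 0.0652) between CON organs, and for Ppargc1a (-0.0172 to 0.0949) and Pygl (-0.0076 to 0.21) in the difference of responses.

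Counts over all genes, the background of the member counts above, also moved. In the liver response 3592 of 19708 genes were called, 4124 with library sizes alone, 3741 of 32589 with no filter, 4243 with DESeq2, 3436 with the block and 1457 of 19397 without CT8 and CT24; in kidney 495, against 1043 with no filter and 196 without CT8 and CT24. The joint test called 702 genes in liver (1151 with library sizes alone, 2873 with no filter, 2017 with DESeq2, 443 with the block) and 156 in kidney (53, 2705 and 694 with library sizes alone, no filter and DESeq2). The difference of responses called 1484 of 22870 (2915 with library sizes alone, 2033 of 37541 with no filter, 2547 with DESeq2). Rhythm was called for 1752 genes in CON liver and 2410 in SD liver (3852 and 3857 with no filter, 29 and 347 with JTK_CYCLE; 3250 in CON with DESeq2), and for 852 and 411 in CON and SD kidney (2391 and 1039 with no filter, 1796 and 1446 with DESeq2, 34 and 0 with JTK_CYCLE). Profiles differed between SD and CON for 0 genes (409 in liver and 38 in kidney with no filter, 4 in liver with DESeq2), and between organs for 672 in CON and 694 in SD (2137 and 1042 with no filter, 1795 and 1247 with DESeq2). In forebrain 7 genes were called (17 with DESeq2), and in cerebellum 0 (1 with DESeq2 or no filter). Depth limits Tat in kidney and 6 genes in brain, and 2 libraries per time limit each single time.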
